A study of Mus musculus with 1470 samples.

Results

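Interferon-stimulated genes are described here in single mouse liver cells through 8 genes: Irf7, Bst2, Ifit1, Ifit2, Ifit3, Rsad2, Isg15 and Usp18. They were chosen by symbol, and all 8 were found among the 14915 gene rows of the deposited table. The table holds Smart-seq2 profiles, a full-length protocol for single cells without molecular identifiers, of 1470 cells of the non-parenchymal fraction (NPCs, all liver cells except hepatocytes). The cells came from 6 C57BL/6J mice, of which 3 were fed a normal chow diet (ND, 718 cells) and 3 a high-fat diet (HFD, 752 cells). The HFD, with 60% of its calories from fat, was given for 9 weeks from 5 weeks of age, and the labels name no transgene and no other agent. Feeding such a diet is a widely used model of obesity, and each mouse is 1 replicate of its diet.

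Interferons bind receptors on the cell surface and activate STAT and IRF transcription factors, which turn on a large set of target genes in nearly every cell type. Their products block steps of viral replication, and some of them feed back on the response itself. In the liver, Kupffer cells (the resident macrophages) and the sinusoidal endothelium line the blood vessels and meet material arriving from the gut, and plasmacytoid dendritic cells (pDCs) are the classical source of type I interferon.

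The interferon response element that STAT and IRF factors bind is built from repeats of GAAA, so a stretch of GAAA, any 2 bases and GAAA again was searched on both strands in the 250 bases before each gene's start, from the RefSeq promoters of GRCm38.p6. Overlapping matches were counted. Of the 7 members with an entry, 5 (71.4%) held a match, against 936 of 27025 genes (3.46%) and 26 of 73 other interferon genes (35.6%). Ifit1 and Ifit3 held 2 matches each, Isg15 held 3, Bst2 held 2 and Rsad2 held 1, while neither Irf7 nor Ifit2 held one in this window. The matched stretches are shown because they are what these 5 members share outside their expression, with the bases of the motif in capitals, 10 bases on each side, read along the strand of the gene.
Ifit1, chr19:34640775-34640823, plus strand: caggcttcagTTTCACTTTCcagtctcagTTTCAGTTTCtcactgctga
Ifit3, chr19:34583363-34583392, plus strand: cagtggtaagTTTCACTTTCctcttctggt
Ifit3, chr19:34583397-34583426, plus strand: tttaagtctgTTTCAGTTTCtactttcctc
Isg15, chr4:156200865-156200906, minus strand: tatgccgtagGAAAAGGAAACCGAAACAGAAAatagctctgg
Rsad2, chr12:26456553-26456582, minus strand: ctggtccaacTTTCATTTTCagaaaacaga
Bst2, chr8:71537577-71537612, minus strand: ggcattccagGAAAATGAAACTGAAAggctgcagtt
In Ifit1, Ifit3 and Rsad2 the motif lies on the strand opposite to the gene and reads as TTTC, any 2 bases, TTTC, and in Isg15 and Bst2 it lies on the strand of the gene. In Isg15 the 3 matches overlap in 1 run of GAAA repeats that ends 57 bases before the start. For Ifit3 the start used lies inside the span of the gene given next. A match is a description of the letters and does not show that a factor binds there.

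In the same assembly the 3 Ifit genes lie together on chromosome 19, with Ifit2 at 34550550 to 34576534, Ifit3 at 34583119 to 34588982 and Ifit1 at 34640889 to 34650009. Irf7 lies on chromosome 7 (141263183 to 141266499), Bst2 on chromosome 8 (71534255 to 71537472), Rsad2 on chromosome 12 (26442743 to 26456452), Isg15 on chromosome 4 (156199424 to 156200818) and Usp18 on chromosome 6 (121245906 to 121270917). The reads were counted without strand and only where they mapped to 1 place, and Ifit3 has a near-identical neighbour, Ifit3b, so the level of Ifit3 is uncertain.

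The deposited values were RPKM (reads scaled to exon length and to the mapped reads of the cell). Levels below are means of log2(RPKM + 1) over the cells of a class within each mouse, given as mean ± SD over mice, and a gene was counted as detected in a cell from 1 RPKM. Cells were clustered without the 8 members and without other interferon genes, and the clusters were named from marker genes, with all listed markers of each class that are in the table detected in at least 25% of its cells. This share alone does not tell the classes apart, since the 10 endothelial markers reached it in every class. Their mean level was 9.46 in endothelial-like cells and at most 4.52 in the others. Kupffer-like cells made up 16.7% and B-cell-like cells 17.5% of the 1470 cells. The others were 47 monocyte-derived and dendritic-like, 469 endothelial-like, 292 T-cell-like, 54 NK-like, 17 pDC-like, 14 neutrophil-like, 34 hepatocyte-like and 40 erythrocyte-like cells. T-cell-like and NK-like cells are not whole clusters: the cells of 2 clusters were divided cell by cell by their T and NK markers, a step set after the clusters were seen. Medians of 87536 to 197957 exon reads per cell were estimated in the 6 mice, and cells of HFD mouse 2 had the fewest genes detected (median of 1595.5, against 2363.5 to 3163 in the other mice). By class the median of exon reads ran from 90163 in neutrophil-like to 253674 in pDC-like cells.

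Transcripts that mark other cells were found in all classes. Alb, the albumin transcript of hepatocytes, had a mean of 12.65 in hepatocyte-like, 9.59 in Kupffer-like, 6.97 in endothelial-like and 4.04 to 6.23 in the other cells. Clec4f, which among liver cells marks Kupffer cells, reached 1 RPKM in 75.3% to 94.1% of the cells of the other classes. Detection at 1 RPKM therefore does not by itself show expression, and levels of Irf7 and Bst2 outside their leading classes are set against such markers below.

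The 8 members fell into 2 widely detected and 6 sparsely detected genes. Bst2 was detected in 75.2% of all 1470 cells and Irf7 in 59.1%. The others were detected in 18.6% (Rsad2), 17.3% (Ifit2), 14.3% (Usp18), 13.3% (Ifit3), 10.3% (Isg15) and 6.53% (Ifit1). HFD mouse 2 had the lowest share of cells with Bst2, Irf7, Ifit2, Ifit3, Rsad2 and Usp18 of the 6 mice. With every cell thinned to 40000 exon reads, which left 1315 cells, Bst2 was detected in 60.3%, Irf7 in 39.3% and the 6 sparse members in 4.32% to 12.3%. The plot of detection by class sets the thresholds of 1 and 10 RPKM side by side.

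**Figure D1:**
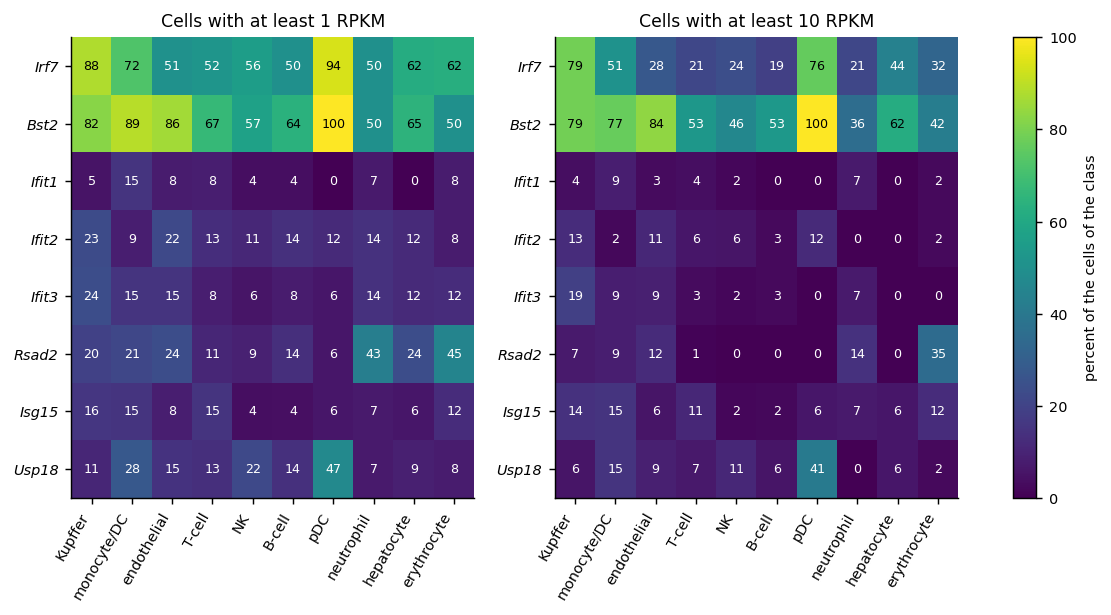
Share of cells (%) of each of the 10 classes in which each member reached 1 RPKM (left) or 10 RPKM (right), as color and as a printed value. Irf7 and Bst2 were detected at 10 RPKM in 78.9% of Kupffer-like cells, and Bst2 in all 17 pDC-like cells.

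Levels differed between the 7 classes with enough cells (all but pDC-like, neutrophil-like and hepatocyte-like cells) for 6 of the 8 members, with limma on class means, mouse as a block and Benjamini-Hochberg adjustment over 9923 genes. Over all genes tested, 67.5% were called in this test. Isg15 (adjusted p = 0.0990) and Usp18 (adjusted p = 0.226) did not pass it. Ifit1 passed it narrowly (adjusted p = 0.0498) and did not pass in 8 of 14 other settings (a pseudocount of 0.1, rescaled cells, classes by marker score, cells of at least 1500 genes, and without ND mouse 2, ND mouse 3, HFD mouse 1 or HFD mouse 2). Each class was then compared with the unweighted mean of the other 6.

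Irf7, the transcription factor that amplifies type I interferon production, was a Kupffer-like and pDC-like gene in these cells. In Kupffer-like cells its mean was 7.35, 8.42 and 6.48 in ND mice 1, 2 and 3 and 7.43, 6.5 and 7.39 in HFD mice 1, 2 and 3. No other class in the fit had a mouse above 5.27, so the Kupffer-like means of all 6 mice lay above those of every other fitted class. The mean of 7.26 ± 0.72 (n = 6 mice) was 4.55 higher than that of the other classes (SE 0.29, adjusted p = 2.2e-14). It was detected in 88.2% of Kupffer-like cells. In pDC-like cells, which were too few for the test, 16 of 17 cells held it, with a mean of 7.03 ± 1.54 in the 3 mice with at least 3 such cells.

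Monocyte-derived and dendritic-like cells followed with an Irf7 mean of 4.09 ± 0.77, which was 0.86 above the other classes (SE 0.29, adjusted p = 0.0187). This call was lost without ND mouse 1, without HFD mouse 2 and without HFD mouse 3. The means of NK-like (3.10 ± 1.28), erythrocyte-like (2.50 ± 0.59), T-cell-like (2.31 ± 0.61), endothelial-like (2.25 ± 0.77) and, lowest, B-cell-like cells (1.88 ± 0.84) lay close together. Of these, T-cell-like, B-cell-like, endothelial-like and erythrocyte-like cells were called lower than the mean of the other classes, a mean that includes the Kupffer-like cells. With RPKM averaged before the logarithm the calls in T-cell-like and endothelial-like cells were lost, and that in erythrocyte-like cells was lost in 6 of the 12 other settings that fitted the class. Relative to its Kupffer-like mean in RPKM, Irf7 stood at 7.75% in T-cell-like, 2.56% in B-cell-like and 5.75% in endothelial-like cells. The Kupffer markers Clec4f, Vsig4 and C1qa stood at 0.354% to 0.375%, 0.495% to 0.827% and 1.55% to 1.74% in the same 3 classes, so the Irf7 shares were above those of the markers in each.

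Bst2, or tetherin, a membrane protein that holds budding virus particles at the cell surface, had its highest level in pDC-like cells. All 17 of these cells held it, and the mean was 11.77 ± 0.36 in 3 mice, against a highest mean of 8.59 for any mouse in any other class. Bst2 is a known surface marker of pDCs and was kept out of the markers that named them.

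Among the fitted classes, endothelial-like cells were highest in Bst2, with 8.59, 8.05 and 7.18 in ND mice 1, 2 and 3 and 7.37, 6.67 and 7.39 in HFD mice 1, 2 and 3. Kupffer-like means ran from 4.80 to 7.81 over the 6 mice and were below the endothelial-like mean in each of them. Against the other classes the endothelial-like mean of 7.54 ± 0.68 was 3.40 higher (SE 0.35, adjusted p = 7.6e-10). The Kupffer-like mean of 6.28 ± 1.03 was 1.92 higher (SE 0.35, adjusted p = 8.1e-05). Monocyte-derived and dendritic-like cells, at 5.94 ± 1.10, were 1.53 higher (SE 0.35, adjusted p = 0.00060), a call that was lost when RPKM was averaged before the logarithm.

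Lymphoid cells held less Bst2. NK-like (3.14 ± 1.23) and B-cell-like cells (3.33 ± 0.79) were called lower than the other classes (differences of -1.74 and -1.52), as were erythrocyte-like cells (2.31 ± 1.61). The call in B-cell-like cells was lost when RPKM was averaged before the logarithm, and that in erythrocyte-like cells with classes by marker score. T-cell-like cells, at 3.83 ± 0.76, were also called lower (difference of -0.93, SE 0.35, adjusted p = 0.0471), but the call was lost in 11 of 14 alternative settings and the difference turned to 0.19 when RPKM was averaged before the logarithm. In T-cell-like and B-cell-like cells Bst2 stood at 18.7% and 11.8% of its endothelial-like mean RPKM, where the endothelial markers Stab2, Dnase1l3 and Clec4g stood at 0.682% to 1.21%.

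**Figure D2:**
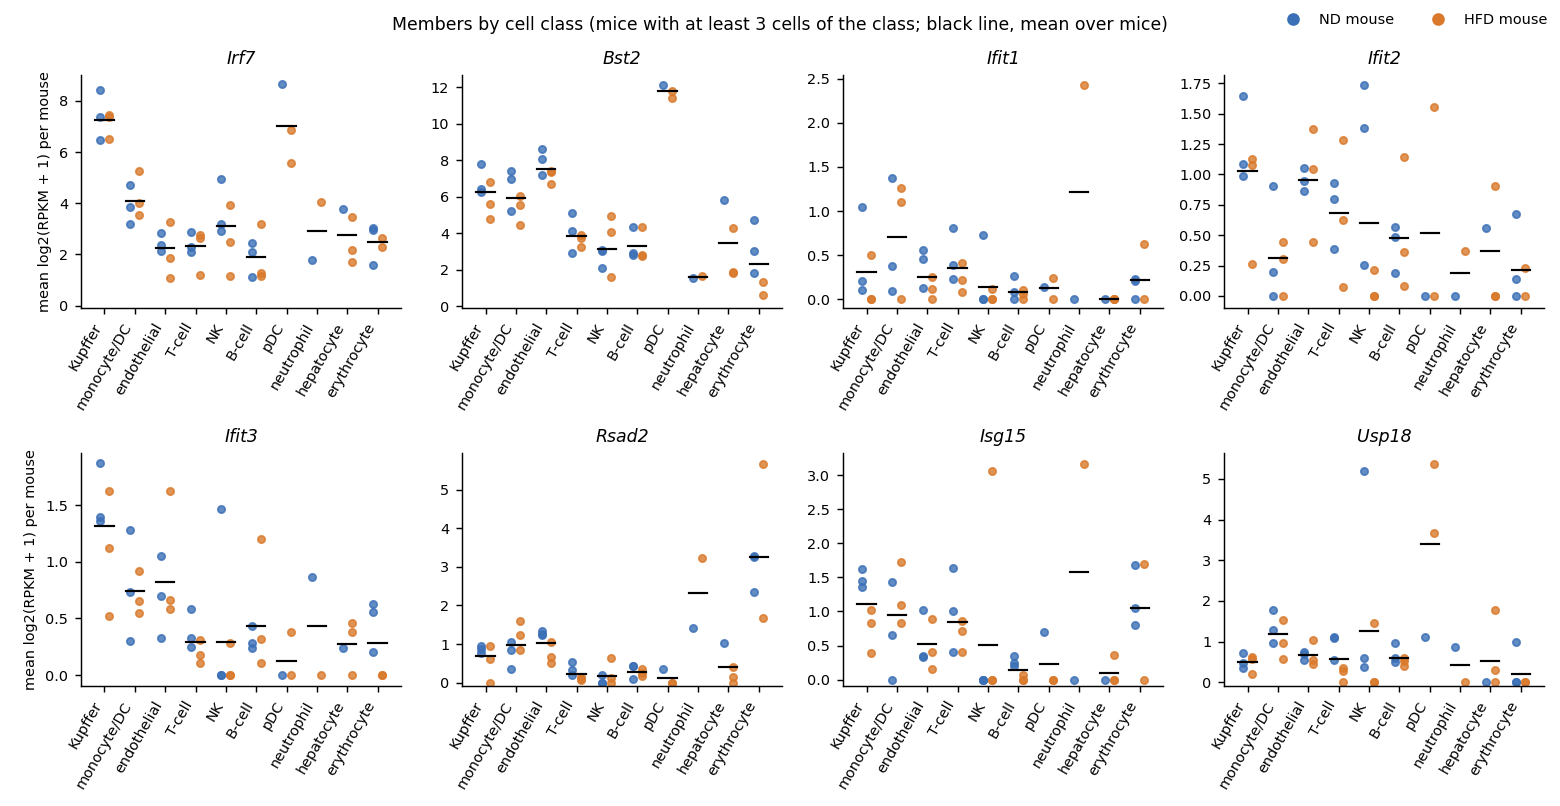
Mean log2(RPKM + 1) per mouse of the 8 members in each class, 1 point per mouse with at least 3 cells of the class (blue, ND; orange, HFD) and a black line for the mean over mice. Irf7 stands highest in Kupffer-like and pDC-like cells, Bst2 in pDC-like and endothelial-like cells, and Rsad2 in erythrocyte-like cells.

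The Ifit proteins bind foreign RNA by its cap or end and block its translation. Ifit3 was highest in Kupffer-like cells, with 1.40, 1.87 and 1.36 in ND mice 1, 2 and 3 and 1.13, 0.52 and 1.63 in HFD mice 1, 2 and 3. HFD mouse 2, the mouse with the fewest genes per cell, was lowest. The Kupffer-like mean of 1.32 ± 0.46 was 0.83 above the other classes (SE 0.15, adjusted p = 9.3e-05), and 23.6% of Kupffer-like cells held the gene, against 15.1% of endothelial-like and 8.22% of T-cell-like cells. In other settings further classes were called. Endothelial-like cells were higher and NK-like and erythrocyte-like cells lower when RPKM was averaged before the logarithm, and monocyte-derived and dendritic-like cells were higher with classes by marker score. NK-like cells were lower without ND mouse 2, and erythrocyte-like cells without HFD mouse 3.

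Ifit2, a neighbour of Ifit3, stood at 1.03 ± 0.44 in Kupffer-like and 0.95 ± 0.30 in endothelial-like cells, and 22.8% and 22.2% of these cells held it. It passed the test over the 7 classes (adjusted p = 0.0232), but no single class differed from the others (adjusted p = 0.0610 for Kupffer-like cells). The test over the classes was not passed with 10 principal components, with cells of at least 1500 genes, or without ND mouse 2, ND mouse 3 or HFD mouse 1, and Kupffer-like cells were called higher without ND mouse 1. When RPKM was averaged before the logarithm, both Kupffer-like and endothelial-like cells were called higher, and monocyte-derived and dendritic-like and erythrocyte-like cells lower. Erythrocyte-like cells were also called lower with classes by marker score.

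Ifit1, the rarest member, had its highest fitted mean in monocyte-derived and dendritic-like cells. The means there were 0.09, 1.38 and 0.38 in ND mice 1, 2 and 3 and 1.10, 1.26 and 0 in HFD mice 1, 2 and 3, and the gene was detected in 7 of 47 cells. The class mean of 0.70 ± 0.62 was 0.48 above the others (SE 0.14, adjusted p = 0.0050). The call was lost without HFD mouse 2 and when RPKM was averaged before the logarithm. At 1 RPKM Ifit1 was found in 0 of 17 pDC-like and 0 of 34 hepatocyte-like cells. With cells pooled over mice as if independent, these counts allow detected shares of up to 17.6% and 8.82% from counting error alone. Values under 1 RPKM were present in pDC-like cells (mean of 0.13 ± 0.12 in 3 mice).

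With these genes, 3 members (Irf7, Bst2 and Ifit3) were called higher in Kupffer-like cells, where 7.68% of all genes were. Another 3 (Irf7, Bst2 and Ifit1) were higher in monocyte-derived and dendritic-like cells, where 34.8% of all genes were, so this count is close to the background. Bst2 was the 1 member higher in endothelial-like cells (15.8% of all genes) and Irf7 the 1 lower there (7.55%). The members lower in T-cell-like, NK-like and B-cell-like cells numbered 3, 2 and 3, where 8.01%, 8.77% and 6.54% of all genes were lower.

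Rsad2, or viperin, an enzyme that makes a chain-terminating nucleotide, had its highest mean in erythrocyte-like cells. The means were 2.36, 3.28 and 3.25 in ND mice 1, 2 and 3 and 5.68 and 1.68 in HFD mice 1 and 2, and HFD mouse 3 gave a single cell at 2.21. In each of the 5 mice with at least 3 such cells this was above the endothelial-like mean of the same mouse (0.67 to 1.34). Against the other classes it was 2.69 higher (SE 0.27, adjusted p = 1.9e-09), a direction in which 0.655% of all genes were called. Without HFD mouse 1 the mean over mice was 2.64 ± 0.77, against 3.25 ± 1.51 with it. Irf7 and Bst2 were called lower in this class, as were 43.2% of all genes, and the call for Irf7 was lost in 6 of 12 settings.

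Within the class, Rsad2 was set beside genes of red cell development. It was detected in 18 of 40 erythrocyte-like cells (45%), in 12 of them at 100 RPKM or more, a level reached by 46 of all 1470 cells. Of the 27 cells with Hbb-bs, an adult beta globin, 16 held Rsad2, and of the 13 without it 2 did. Cells with Rsad2 had a mean of 11.17 for Hbb-bs and 13.14 for Alas2, the erythroid enzyme that starts heme synthesis. Cells without Rsad2 had 6.09 and 9.16. Across the 40 cells Pearson's r of Rsad2 was 0.39 with Alas2 and 0.29 with Hbb-bs, as a description over cells of 6 mice.

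These differences rest on 10 wells with an Alas2 level of 6.42 or less, of which 0 held Rsad2. In the other 30 wells, a split chosen after seeing the data, Alas2 was at 11.76 or more and 18 held Rsad2 (60%). Among these 30 the direction for Alas2 turned, with a mean of 13.14 in the 18 wells with Rsad2 and 13.94 in the 12 without (r = -0.28). Hbb-bs stood at 11.17 and 10.19 (r = -0.06), and Rsad2 was held by 16 of the 26 wells with Hbb-bs and 2 of the 4 without.

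Most other members were rare in these cells. Ifit1, Ifit2, Ifit3 and Usp18 were detected in 7.50% to 12.5% of erythrocyte-like cells, and no such cell held 3 or more of the 6 sparse members. Isg15 was found in 5 of the 40 cells, and its r with Rsad2 across them was 0.50. Cmpk2, the interferon-stimulated gene next to Rsad2, was detected in 5.56% of the cells with Rsad2 and in 13.6% of those without (r = -0.22). Erythrocyte-like cells had few genes detected (median of 1709) and held Clec4g, a sinusoidal endothelial marker, at 15.6% of its endothelial-like mean. The Kupffer markers C1qa and Clec4f stood at 3.74% and 1.63% of their Kupffer-like means, and the part of other cell types in the Rsad2 level of these wells was not tested. Of the fitted classes, endothelial-like cells had the next highest Rsad2 mean.

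**Figure D3:**
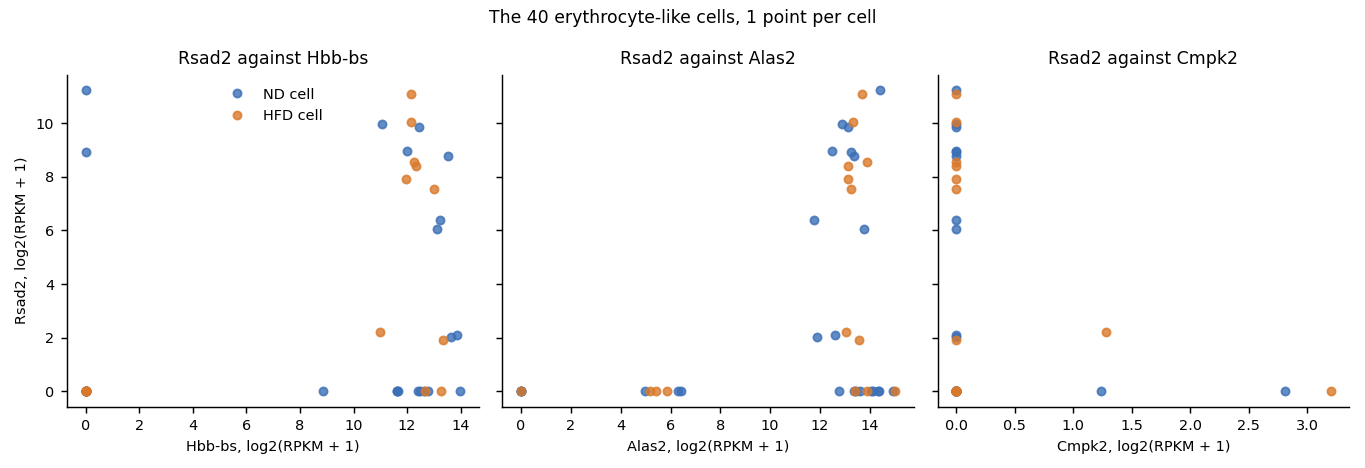
Level of Rsad2 in each of the 40 erythrocyte-like cells against Hbb-bs, Alas2 and Cmpk2, all as log2(RPKM + 1), with 1 point per cell (blue, ND; orange, HFD). Of the 18 cells with Rsad2, 16 also held Hbb-bs, and nearly all of them lie at 0 for Cmpk2. The 10 wells low in Alas2 all lie at 0 for Rsad2.

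Outside erythrocyte-like cells, Rsad2 was detected in 23.7% of endothelial-like, 21.3% of monocyte-derived and dendritic-like and 19.5% of Kupffer-like cells, and 24 of the 46 cells at 100 RPKM or more were endothelial-like. T-cell-like (0.23 ± 0.18), NK-like (0.16 ± 0.25) and B-cell-like cells (0.28 ± 0.14) were called lower than the mean of the other classes, a mean that includes the erythrocyte-like cells. These calls were lost in 4, 2 and 9 of 14 settings. Without the erythrocyte-like class, as in the settings with 10 principal components or with cells of at least 1500 genes, endothelial-like and monocyte-derived and dendritic-like cells were called higher in Rsad2.

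Isg15, a ubiquitin-like protein that is joined to other proteins, stood at 1.11 ± 0.46 in Kupffer-like, 1.05 ± 0.70 in erythrocyte-like, 0.95 ± 0.61 in monocyte-derived and dendritic-like and 0.84 ± 0.46 in T-cell-like cells. It was at 0.14 ± 0.14 in B-cell-like cells, the lowest mean of the fitted classes (adjusted p = 0.0848 against the others). In NK-like cells it was found in 2 of 3 cells of HFD mouse 3 and in 0 of 51 cells of the other mice. When RPKM was averaged before the logarithm, Isg15 passed the test over the classes, with Kupffer-like cells called higher and NK-like and B-cell-like cells lower. Without HFD mouse 3 it passed too, with NK-like cells called lower.

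Usp18, the protease that removes Isg15 from its targets and also dampens the type I interferon receptor, was most often detected in pDC-like cells, in 8 of 17 (47.1%), with a mean of 3.39 ± 2.15 in 3 mice. Monocyte-derived and dendritic-like cells stood at 1.18 ± 0.43, and 27.7% of them held it. In NK-like cells the mean of 1.27 ± 2.0 rested on ND mouse 2, with 5 cells and a mean of 5.20. Without it the mean was 0.49 ± 0.60 in 5 mice. No class passed the test against the others for Usp18. The gene passed the test over the classes with classes by marker score. Monocyte-derived and dendritic-like cells were called higher with classes by marker score and without ND mouse 2, and erythrocyte-like cells were called lower with RPKM averaged before the logarithm.

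Neighbours in the order of levels were compared within mice. Over the 48 neighbouring pairs of classes of the 8 members, an exact two-sided sign-flip test over mice called 0 after adjustment (smallest adjusted p = 0.5), and 3 pairs reached an unadjusted p of 0.0312, the smallest that 6 mice allow. With this many pairs and so few mice an adjusted p could hardly pass the threshold, so the 0 calls do not show that neighbours are alike. The 3 pairs were Irf7 in Kupffer-like over monocyte-derived and dendritic-like cells (difference of 3.17 ± 0.84, SD over mice), Bst2 in endothelial-like over Kupffer-like cells (1.27 ± 0.60) and Bst2 in monocyte-derived and dendritic-like over T-cell-like cells (2.11 ± 1.29). Each held in 6 of 6 mice. Rsad2 in erythrocyte-like over endothelial-like cells (2.13 ± 1.46) held in 5 of 5 mice, for which the smallest exact p is 0.0625.

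Some cells held several of the sparse members. Of 1470 cells, 682 held none of the 6, 508 held 1, 200 held 2 and 80 (5.44%) held 3 or more. All 6 were found in 3 cells, of which 2 were endothelial-like (ND mouse 1 and HFD mouse 1) and 1 was monocyte-derived and dendritic-like (HFD mouse 1). The share of cells with 3 or more was 17% in monocyte-derived and dendritic-like, 7.32% in Kupffer-like, 7.25% in endothelial-like, 4.45% in T-cell-like, 3.70% in NK-like and 1.56% in B-cell-like cells. Per mouse it ran from 2.23% in HFD mouse 2 to 9.50% in ND mouse 2. Depth also differed between classes, with medians of 226796 exon reads in monocyte-derived and dendritic-like, 139778 in T-cell-like, 123477 in endothelial-like and 100691 in Kupffer-like cells. The part of depth in the shares by class was not tested. Over all classes pooled, the 80 cells had a median of 2984 genes detected, against 2460.5 in the others. Cells with 3 or more had a higher median than their class in Kupffer-like, endothelial-like, T-cell-like and NK-like cells. Their median was lower in monocyte-derived and dendritic-like cells (2571, against 3181 over the class) and in B-cell-like cells (2397, against 2438).

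From cell to cell, with the mean of each class and mouse removed, the pairs of members with the highest Pearson r were Ifit1 with Usp18 (0.19), Isg15 with Rsad2 (0.19) and Ifit1 with Ifit3 (0.19), and the lowest was Ifit2 with Irf7 (0.00267). These are descriptions over 1470 cells of 6 mice, and in sparse counts such values are low. Within T-cell-like cells (n = 292) Ifit1 had an r of 0.38 with Usp18 and of 0.37 with Rsad2.

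The genes most like the members were sought among 9923 genes by the r of each with the mean of the members, or of the other 7 for a member. The 10 with the highest r were Ifit1 (0.25), Mnda (0.24), Isg15 (0.23), Rtp4 (0.23), Parp9 (0.21), Gm12250 (0.21), Usp18 (0.21), Oasl2 (0.20), Oas2 (0.20) and Xaf1 (0.19). The median over all genes was 0.0244 and the 99th percentile 0.115. Of the other members, Ifit3 ranked 11th, Rsad2 17th, Irf7 51st, Bst2 100th, and Ifit2 lower with an r of 0.09. The mean of the members itself had an r of 0.21 with the number of genes detected per cell, and the part of this in the r of single genes was not tested.

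The 80 cells with 3 or more sparse members also held other interferon genes more often. Each of 80 other interferon genes was compared with the remaining cells of the same class and mouse. A higher share was found for 73 of the 80 genes, against 70.6% of all genes, and for 34 (42.5%) the gap was over 10 percentage points, against 8.71% of all genes. Irf1, a transcription factor induced by interferons, was found in 81.3% of the 80 cells and in 64.4% of the matched ones. Ifih1, a sensor of double-stranded RNA, was found in 41.3% and 17.2%, Rtp4 in 70% and 44.1%, and Irgm2, a GTPase induced by interferon gamma, in 60% and 32.3%. Pooled over classes the 80 cells also had more genes detected, and the part of this in these gaps was not tested beyond the shares over all genes.

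**Figure D4:**
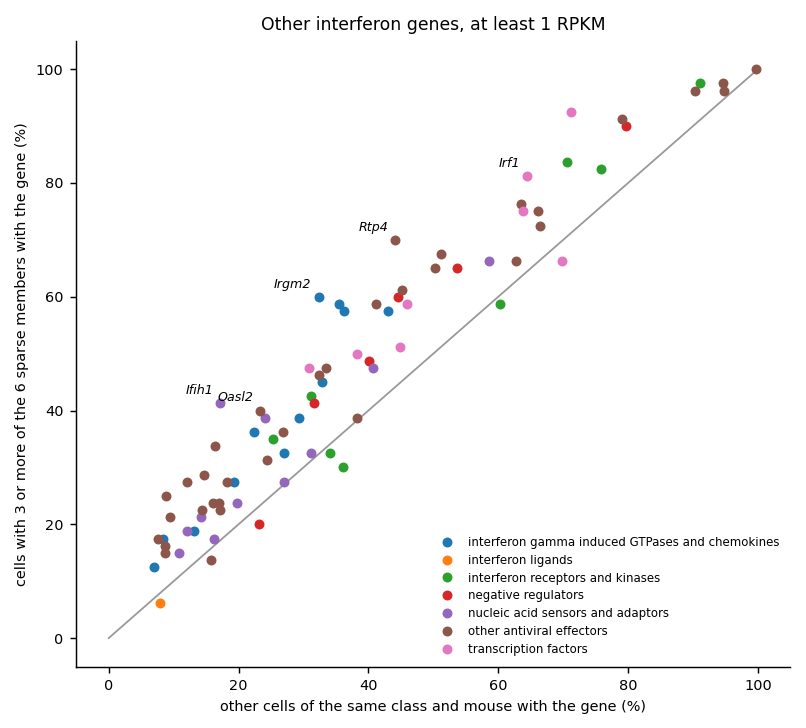
Share of cells (%) with at least 1 RPKM of each of 80 other interferon genes, in the 80 cells with 3 or more of the sparse members (vertical) against the other cells of the same class and mouse (horizontal), colored by list, with the line of equal shares. Most genes, 73 of 80, lie above the line, and Irf1, Rtp4, Irgm2, Ifih1 and Oasl2 are named.

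The rest of the pathway was taken from 7 lists with 91 genes, of which 82 were in the table and 80 were tested. For these genes the highest class is the highest of the 7 fitted classes. Of these, 73 differed between classes (91.3%, against 67.5% of all genes). The class with most of them higher was the monocyte-derived and dendritic-like one, with 53 of 80 against 34.8% of all genes, and in erythrocyte-like cells 50 were lower against 43.2%. The median difference of the 80 genes in the former was 0.89, against 0.29 over all genes. In Kupffer-like cells, where Irf7, Bst2 and Ifit3 were higher, 16 of the 80 were higher and 6 lower, against 7.68% and 7.1% of all genes (median of -0.06, and -0.16 over all genes).

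Of the ligands Ifng was tested, and it was highest in T-cell-like cells (1.31 ± 0.38, adjusted p = 0.0037). Ifna1, Ifna2, Ifna4, Ifna5, Ifnb1, Ifnl2 and Ifnl3 were not analysed here. Among receptors and kinases, all 8 tested genes differed between classes, against 67.5% of all genes. Ifnar2, a chain of the type I receptor, was highest in monocyte-derived and dendritic-like cells (5.37 ± 0.86), Ifngr1, a chain of the interferon gamma receptor, in NK-like cells (7.22 ± 2.03), and the kinase Jak1 in endothelial-like cells (6.53 ± 0.65).

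All 8 other transcription factors differed between classes as well, against 67.5% of all genes, and 7 were higher in monocyte-derived and dendritic-like cells, against 34.8%. Irf8, a factor of myeloid and dendritic lineages, was highest there among the fitted classes (6.13 ± 1.29), and it was also among the 10 leading genes of the pDC-like cluster, which was not fitted. Irf1 (4.28 ± 1.29) was highest in T-cell-like cells. Neither was called higher in Kupffer-like cells, the class in which Irf7 led among the fitted ones.

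Of the 11 nucleic acid sensors and adaptors tested, 11 differed between classes (67.5% of all genes did) and 8 were higher in monocyte-derived and dendritic-like cells (34.8% of all genes were), among them Myd88 (3.53 ± 1.19), the adaptor of Toll-like receptors, and Zbp1 (3.15 ± 1.18), a sensor of Z-form nucleic acid. Tmem173, which encodes STING, was highest in NK-like cells (4.42 ± 1.96). Of 34 other antiviral effectors 30 differed (88.2%, against the same 67.5%). Ly6e, highest in Kupffer-like cells (10.89 ± 0.36), and Ifitm3, highest in monocyte-derived and dendritic-like cells (10.93 ± 0.90), reached levels well above any member but Bst2, and Ifitm2 was highest in endothelial-like cells (10.13 ± 0.52), as Bst2 was among the fitted classes.

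Of the 12 genes induced by interferon gamma 9 differed between classes (75%, against 67.5% of all genes), and 4 were higher in T-cell-like cells, where 0 members and 15.6% of all genes were. Igtp was highest there (4.5 ± 0.80), Irgm1 in monocyte-derived and dendritic-like (2.18 ± 1.01) and Gbp7 in NK-like cells (2.62 ± 1.66). All 6 negative regulators differed between classes, against 67.5% of all genes. Ptpn6, a phosphatase (8.33 ± 0.74), and Trex1, an exonuclease that clears DNA from the cytosol (7.67 ± 0.73), were highest in monocyte-derived and dendritic-like cells, and Socs1, an inhibitor of JAK kinases, in T-cell-like cells (5.10 ± 1.21).

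Whether the diet moved the members was tested in the 5 classes with at least 5 cells in every mouse, with limma on means per mouse, leaving out genes with a mean under 1. The members tested were 5 in Kupffer-like cells (Irf7, Bst2, Ifit2, Ifit3 and Isg15), 3 in monocyte-derived and dendritic-like (Irf7, Bst2 and Usp18), 3 in endothelial-like (Irf7, Bst2 and Rsad2) and 2 each in T-cell-like and B-cell-like cells (Irf7 and Bst2). With limma 0 members were called in any class, and 0 had an unadjusted p under 0.05. Over all genes the test called 0.0302% in Kupffer-like cells and 0% in the other classes.

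The 1 gene called was Serpina1e, a serum protease inhibitor made by hepatocytes, in Kupffer-like cells. Its means were 6.36, 5.53 and 6.26 in ND mice 1, 2 and 3 and 2.96, 1.69 and 2.54 in HFD mice 1, 2 and 3 (difference of -3.65, SE 0.52, adjusted p = 0.0151). No gene was called in this class with a pseudocount of 0.1, with RPKM averaged before the logarithm, without the filter, or without ND mouse 1 or ND mouse 3.

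Irf7 in Kupffer-like cells stood at 7.42 ± 0.97 in ND and 7.11 ± 0.53 in HFD mice (difference of -0.31, SE 0.57, adjusted p = 0.999). The mice of the diets overlapped. Bst2 in the same cells was at 7.81, 6.27 and 6.42 in ND mice 1, 2 and 3 and at 5.59, 4.80 and 6.78 in HFD mice 1, 2 and 3, a difference of -1.11 (SE 0.61, adjusted p = 0.999). In endothelial-like cells Bst2 stood at 7.94 ± 0.71 and 7.15 ± 0.41 (difference of -0.80, SE 0.47, adjusted p = 0.999).

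Isg15 in Kupffer-like cells was at 1.45, 1.63 and 1.36 in ND mice 1, 2 and 3 and at 0.83, 0.39 and 1.02 in HFD mice 1, 2 and 3. The diets did not overlap, which was so with HFD lower for 4.92% of the genes tested in this class, and the difference of -0.73 (SE 0.48) did not pass the test (adjusted p = 0.999). Rsad2 in endothelial-like cells was at 1.26, 1.34 and 1.24 in ND mice 1, 2 and 3 and at 1.06, 0.67 and 0.51 in HFD mice 1, 2 and 3. Here too the diets did not overlap (5.29% of genes with HFD lower), with a difference of -0.53 (SE 0.42, adjusted p = 0.999).

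Members under the filter on low values were read from a fit of all genes. Usp18 in T-cell-like cells was at 1.11, 1.10 and 0.54 in ND mice 1, 2 and 3 and at 0.28, 0.36 and 0 in HFD mice 1, 2 and 3 (difference of -0.70, SE 0.20, adjusted p = 0.999), and Rsad2 there at 0.36 ± 0.17 and 0.10 ± 0.04. Neither overlapped between diets, as for 6.95% of genes with HFD lower. Isg15 in B-cell-like cells was at 0.27 ± 0.08 and 0.02 ± 0.04 without overlap (7.28% of genes, adjusted p = 0.808). In this fit limma gave unadjusted p of 0.0165 for Usp18 in T-cell-like and 0.0149 for Isg15 in B-cell-like cells. In the other direction, Isg15 and Rsad2 in monocyte-derived and dendritic-like cells had higher means in HFD (1.22 against 0.69 and 1.22 against 0.75), with overlap and adjusted p = 0.980 for both.

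Medians over the members tested and over all genes were both below 0 in each class. The median difference between HFD and ND over all genes tested was -0.20 in Kupffer-like, -0.13 in monocyte-derived and dendritic-like, -0.18 in endothelial-like, -0.29 in T-cell-like and -0.27 in B-cell-like cells. That of the members tested was -0.45, -0.32, -0.53, -0.33 and -0.04, over 5, 3, 3, 2 and 2 genes. HFD mouse 2, with the fewest genes per cell, is 1 of the 3 HFD mice. Each mouse has its own form of cell title, so differences between mice and between sets of libraries could not be told apart.

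**Figure D5:**
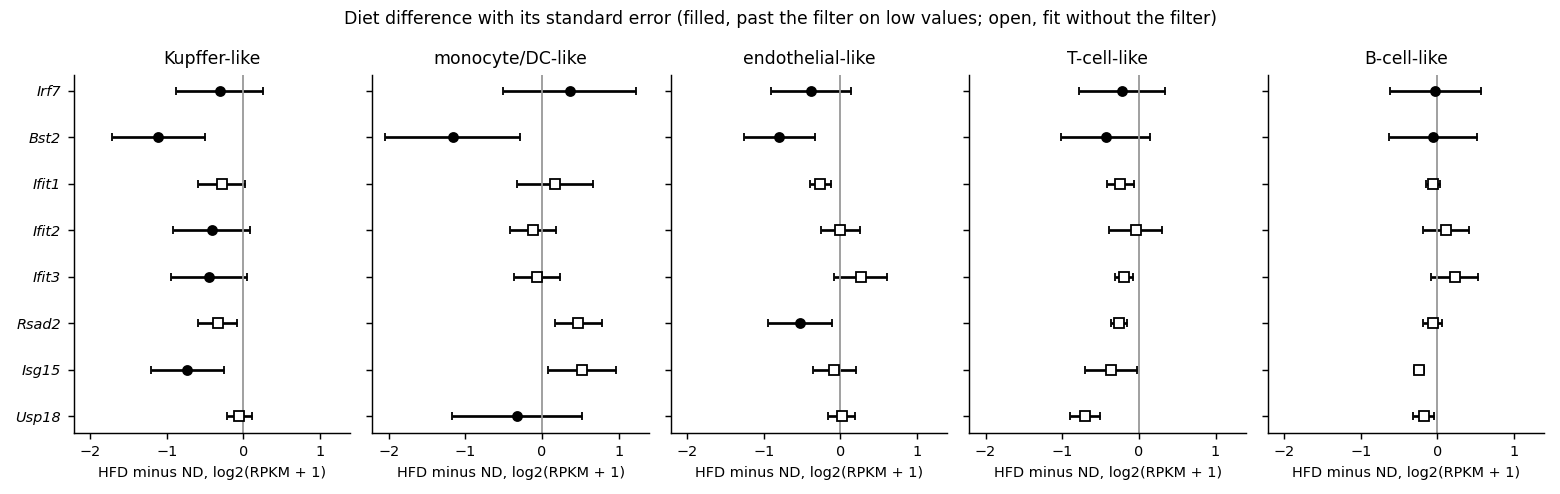
Difference between HFD and ND mice, on the log2(RPKM + 1) scale with its standard error, for each member in the 5 classes tested (filled, genes past the filter on low values; open, the fit of all genes). None was called, and the lowest values were those of Bst2 in Kupffer-like (-1.11) and in monocyte-derived and dendritic-like cells (-1.17).

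Of the other interferon genes, 44 to 64 were tested per class and 0 were called with limma. At an unadjusted p under 0.05 there were 2 in Kupffer-like, 2 in monocyte-derived and dendritic-like, 1 in endothelial-like, 3 in T-cell-like and 2 in B-cell-like cells, or 1.96% to 6% of those tested, against 1.96% to 3.36% of all genes. Ifi27l2a, a mitochondrial interferon-stimulated protein, was among them in 4 classes. Its means in Kupffer-like cells were 9.34, 9.45 and 8.67 in ND mice 1, 2 and 3 and 7.62, 4.45 and 8.30 in HFD mice 1, 2 and 3 (difference of -2.36, SE 0.78, adjusted p = 0.999). In T-cell-like cells the difference was -1.85 (SE 0.60, adjusted p = 0.999), and there too the diets did not overlap, as for 7.49% of genes with HFD lower. In monocyte-derived and dendritic-like cells Adar, an RNA-editing enzyme, was at 5.18, 2.66 and 2.05 in ND mice 1, 2 and 3 and at 1.67, 0.27 and 1.55 in HFD mice 1, 2 and 3, without overlap (5.04% of genes with HFD lower, adjusted p = 0.999).

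The diet difference in Kupffer-like cells was compared with that in cells of 3 other classes of the same mice (endothelial-like, then B-cell-like, then T-cell-like). With limma 0 of 3898, 0 of 3519 and 0 of 3961 genes were called (0% of each). Of the 3, 2 and 2 members past the filter on low values 0, 1 and 0 had an unadjusted p under 0.05, as did 2.49%, 3.10% and 3.74% of all genes tested. The 1 was Bst2, whose lead of Kupffer-like over B-cell-like cells was 3.48 in ND and 2.42 in HFD mice (difference of -1.05, SE 0.47, adjusted p = 0.998). For Irf7 the lead of Kupffer-like over endothelial-like cells was 4.97 in ND and 5.05 in HFD mice (difference of 0.07, SE 0.55, adjusted p = 0.999). In the fit of all genes, 2, 2 and 1 of the 8 members had an unadjusted p under 0.05, as did 4.45%, 4.49% and 4.5% of all genes. Among the members that had not passed the filter, limma gave unadjusted p of 0.00737 for Ifit3 against B-cell-like cells (difference of -0.68, adjusted p = 0.860), 0.0276 for Usp18 against T-cell-like cells (0.65, adjusted p = 0.998) and 0.0352 for Isg15 against endothelial-like cells (-0.66, adjusted p = 0.999).

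The share of cells with 3 or more of the sparse members was compared by diet without a test. It was 10.4% ± 4.85 in ND and 4.70% ± 4.27 in HFD mice among Kupffer-like cells, and 6.71% ± 5.81 and 6.86% ± 3.11 among endothelial-like cells (SD, n = 3 mice each). Among T-cell-like cells it was 6.70% ± 5.94 and 1.18% ± 1.10, and among B-cell-like cells 2.05% ± 1.86 and 0.667% ± 1.15. With 3 mice against 3 an exact permutation test cannot go below a p of 0.1.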

How the data were processed

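NPCs of 6 mice were index-sorted into 384-well plates and sequenced as 50-base single reads. Reads were mapped by the authors against mm10 (STAR). They counted uniquely mapped reads on RefSeq genes with rpkmforgenes, filtered out cells of low quality and doublets (Scrublet) and deposited RPKM values, which are not counts. All cell columns were matched to a mouse by their labels, and 0 columns of values had no sample. Fold changes and p-values of the authors were not used.

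Exon reads per cell were estimated from the low values, of which 64.4% lay within 0.05 of a whole multiple of 1 read with the real gene lengths and 12.6% with shuffled lengths. No estimate was had for 32 cells. Since gene lengths are only partly known, no count test was run.

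Classes came from 13 spectral clusters on 1000 variable genes and 20 principal components (15 nearest neighbours), named from markers, without the members and other interferon genes. The cluster first named NK had 7 of 10 NK markers detected and 0 among its 10 leading genes. Its cells and those of the T cluster were divided anew by k-means with 2 groups on the T and NK markers. No doublet caller was run again. Class means of log2(RPKM + 1) per mouse (at least 3 cells, 5 mice) were compared with limma, with mouse as a block, for genes at 1 RPKM in at least 5% of cells, and diets with limma without a trend, for classes with at least 5 cells per mouse. The threshold was an adjusted p of 0.05. Differences on this scale understate the change of low genes. The scripts were tested on simulated data.

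Named genes are the 8 members, the 3 of each interferon list with the highest mean, up to 4 genes per class called between diets and the 10 most like the members. Some genes that these rules name are not reported here. Genes in the accounts of erythrocyte-like cells, of cells with 3 or more members and of unadjusted diet differences were named after their values were seen. The members and lists were chosen with earlier results of these data known. Alternatives were a pseudocount of 0.1, averaging RPKM before the logarithm, rescaling cells, classes by marker score, 10 principal components, cells with at least 1500 genes, no filter, a mean-variance trend, a replicate block and leaving out each mouse. Thinning to 40000 reads and leaving out wells low in Alas2 were added after seeing the data. Replicates are separate mice per the labels. The models ran in R 4.3.3 with limma 3.58.1. Clustering used scikit-learn 1.9.0 and the exact tests Python 3.11.15 with scipy 1.17.1.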

Additional observations from a re-analysis of the deposited data

Results flagged for a closer look

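In 63 groups of 4 to 6 mice with at least 3 cells (a member in a class), 10 held a mouse whose mean of log2(RPKM + 1) stood apart from the others by a gap above Dixon's limit for its group size. For values close to normal chance gives about 1 in 20 such groups, a rate that need not hold where most mice are at 0. In NK-like cells, of which most mice gave few, 5 values stood apart. ND mouse 2, with 5 cells, was at 0.73 for Ifit1, 1.47 for Ifit3 and 5.20 for Usp18, where the next mouse was at 0.12, 0.29 and 1.47. HFD mouse 3, with 3 cells, was at 3.06 for Isg15 and the other mice at 0, and HFD mouse 1 was at 0.64 for Rsad2 with the next mouse at 0.21.

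In B-cell-like cells, HFD mouse 3 was at 1.2 for Ifit3 (next mouse 0.43) and ND mouse 1 at 0.96 for Usp18 (next mouse 0.59). Rsad2 was at 0 in the 29 Kupffer-like cells of HFD mouse 2, the mouse with the fewest genes per cell, where the next lowest mouse was at 0.62 and the mean of the other 5 mice was 0.83 ± 0.14. Single mice also stood apart for Isg15 in hepatocyte-like cells (HFD mouse 2, 0.36, with 0 in the other mice of at least 3 cells and 2.48 in the 2 cells of ND mouse 2) and for Usp18 in erythrocyte-like cells (ND mouse 1, 0.98, with 0 in the other mice of at least 3 cells and 2.63 in the single cell of HFD mouse 3).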

How the results depend on the processing

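Of the 19 pairs of a member and a class called against the other classes, 7 were called in every setting in which their class was fitted: Irf7, Bst2 and Ifit3 in Kupffer-like, Bst2 in endothelial-like and NK-like, Irf7 in B-cell-like and Rsad2 in erythrocyte-like cells. Without 1 mouse, 15 to 18 pairs were called in all, and 16 to 24 in the other settings. Erythrocyte-like cells were not fitted with 10 principal components or with cells of at least 1500 genes. The difference of Bst2 in T-cell-like cells turned from -0.93 to 0.19 when RPKM was averaged before the logarithm. The members called over the classes were 4 to 7 without 1 mouse (6 with all mice). The cause of these changes was not tested.

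For diet, 0 members were called in each class in every setting run. The genes called in Kupffer-like cells (1) became 0 with a pseudocount of 0.1, with RPKM averaged before the logarithm and without a filter, and 2 with a mean-variance trend. With the trend 1 gene was called in each of endothelial-like, T-cell-like and B-cell-like cells (0 without it). Leaving out a mouse gave 0 to 1 in Kupffer-like cells (0 without ND mouse 1 or ND mouse 3) and 0 to 44 in endothelial-like cells (44 without HFD mouse 3). The numbers of the mice were not taken as pairs. Deviations of same-numbered mice had r of -0.20 to 0.19 and passed 0.1 for all 3 numbers in none of 4 classes. In T-cell-like and B-cell-like cells each ND mouse correlated best with the HFD mouse of its own number, a hint of pairing, so these values do not settle it. With a replicate block 1 gene was called in Kupffer-like cells and 0 in the others, and 0 between classes. Among values for single genes, 972 kept direction and side of the threshold, 41 lost and 23 gained a call, 8 moved and 1 called value turned. Another 70, called neither before nor after, changed sign, as Ifit3 in B-cell-like cells did from -0.20 to 0.77 with RPKM averaged before the logarithm.

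Depth limits detection: at 40000 reads per cell Irf7 fell from 59.1% to 39.3% of cells and the 6 sparse members to 4.32% to 12.3%, so a cell without a member is not shown to lack it. The lowest counts of genes came from HFD mouse 2.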

Other observations

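Among classes too small for the tests, neutrophil-like cells (14 cells, 2 to 3 per mouse) held Rsad2 in 6 cells (42.9%), Irf7 in 7 and Bst2 in 7, and 1 of them held 4 of the 6 sparse members. Hepatocyte-like cells, which are not NPCs, numbered 34 and held Bst2 in 64.7%, Irf7 in 61.8% and Rsad2 in 23.5% of cells, and none held 3 or more sparse members. In pDC-like cells the Irf7 means were 8.65, 9.34 and 9.22 in ND mice 1, 2 and 3, with 5, 1 and 1 cells, and 5.58, 4.97 and 6.86 in HFD mice 1, 2 and 3, with 4, 2 and 4 cells. Since 3 of the mice gave fewer than 3 cells, no test was made. Bst2 in the same cells ran from 11.40 to 12.12 over the 6 mice.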
